A study of Mus musculus with 8 samples.

Results

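The 4 control arrays of the series are described here, out of 8 arrays in all. They were chosen by title, as the arrays named control with replicate numbers 1 to 4, and are called control 1 to control 4. The cells were hepatoblasts of Ink4a-Arf-null mouse embryos at embryonic day 14.5, a genotype that lacks both growth inhibitors of that locus and that all arrays of the series share. Hepatoblasts were sorted with magnetic beads for Dlk, kept for 12 to 18 h, transduced to express EGFP as the control insert, and grown on type IV collagen with hepatocyte growth factor at 50 ng/ml and epidermal growth factor at 20 ng/ml. Flow cytometry was used at day 28 to isolate the cells, and the RNA of 10000 cells was amplified in 2 cycles for Affymetrix mouse arrays. The series names 4 independent experiments. The sources used here do not give how many embryos or clones stand behind an array. There is 1 group, so the report gives levels, classes and the spread between the 4 arrays. The only p-values come from a split of these arrays into pairs, which no label states. They weigh the difference between the pairs against the spread within them, and compare no conditions. They do not measure the spread between all 4 arrays.

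Hepatoblasts are the shared precursors of hepatocytes and of cholangiocytes, the cells lining bile ducts. In the fetal liver they make albumin and alpha-fetoprotein, and the factors Hnf4a, Foxa and C/EBP drive the hepatocyte programme, while Notch and TGF-beta signals and the factor Sox9 accompany bile duct fate. Full hepatocyte maturity, with the cytochromes of drug and bile acid metabolism, is reached only after birth.

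Values are signal intensities per probe set on a linear scale, and 18193 genes were represented by 1 probe set each. Background was set on each array at the 95th percentile of 27 probe sets for Bacillus transcripts that show no spiked RNA, which came to 6.65, 9.44, 6.28 and 6.82 on controls 1 to 4. On all 4 arrays 11416 genes, 62.7%, lay above it, and 2440 genes, 13.4%, lay at or under it. Of 91 measured markers of endothelium, leukocytes, blood lineages, pancreas, gut and pluripotent cells, 27 still lay above it on all 4 arrays, 21 of them at a mean signal under 100. Lying above background therefore does not by itself show that a gene was expressed. The brightness of a probe set depends on its sequence too, so "among the brightest 10% of genes" (1820 genes, 10%) describes signal and is no order of transcript numbers. Over the 11416 genes the log2 signals of controls 3 and 4 correlated at 0.968 and those of controls 1 and 4 at 0.884, the highest and lowest of the 6 pairs. The Gapdh 3' over 5' ratio was 3.10 on control 1 and 1.65 to 1.85 on the others.

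**Figure D1:**
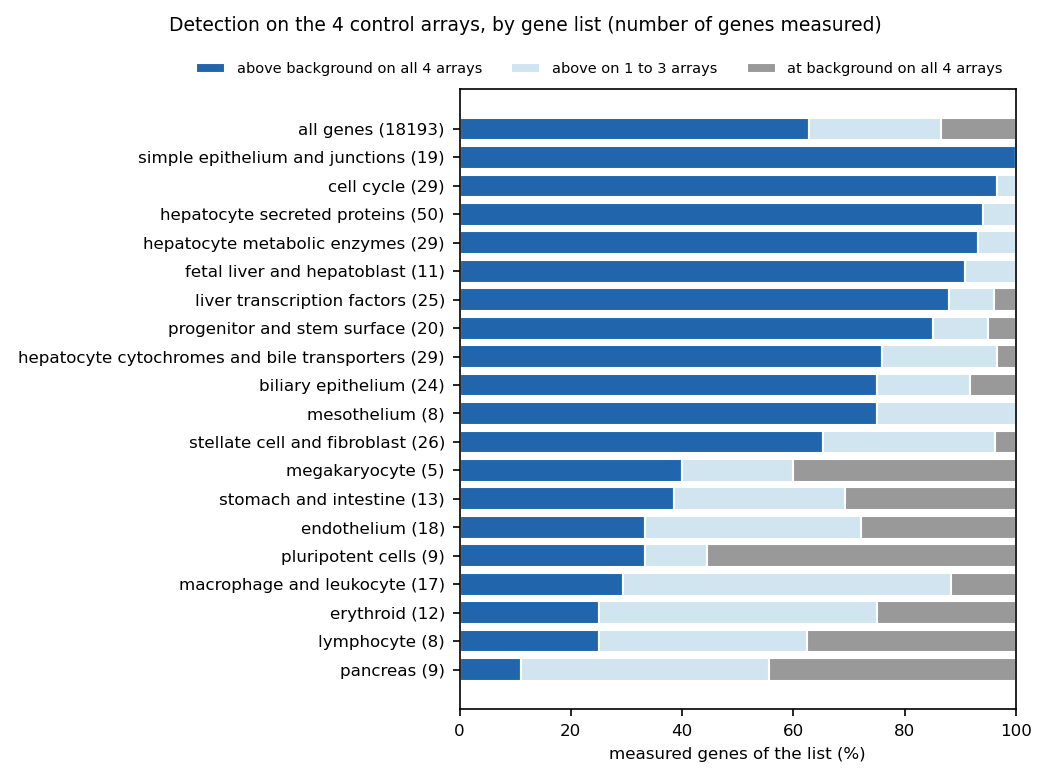
Share of the measured genes of each list that lay above background on all 4 control arrays (dark blue), on 1 to 3 arrays (light blue) or on no array (grey), with the number measured in brackets. Lists of epithelial, cell cycle, secreted protein and enzyme genes reach 93.1% to 100% in dark blue, lists of blood, endothelial and pancreatic genes 11.1% to 40%, and all genes 62.7%.

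All 5 markers of hepatoblasts lay above background on each array, so they did not go against the label. As 62.7% of all genes did the same, this alone is no check of it. The values are given as deposited, always in the order of controls 1 to 4, while each range given as a fold is after centring. Counts of list members above background on all 4 arrays stand against 62.7% of all genes, and counts varying at least 4-fold against 8.51%. Afp, the fetal serum protein alpha-fetoprotein, read 4587, 3911, 5792 and 6271 (mean 5140.1 ± 1083, SD, n = 4). Alb, serum albumin, read 4094, 3126, 5338 and 5367 (mean 4481 ± 1081, SD, n = 4). Both lay near the top of the scale, and controls 3 and 4 read higher than controls 1 and 2. Other bright genes did so too, among them Eef1a1 (4140, 3556, 5423 and 5622) and Actg1 (4516, 3961, 5535 and 5651). Errfi1, also bright, did not (4459, 3815, 4281 and 4734). The pattern therefore does not set Afp and Alb apart from other bright genes. Hnf4a, the nuclear receptor that maintains hepatocyte identity, read 748, 852, 1537 and 1719 (mean 1214 ± 486, SD, n = 4), again higher on controls 3 and 4. Dlk1, the surface protein used for the sort, read 543, 1017, 1634 and 2103. After each array was centred on its detected genes this was a 3.42-fold range, with control 1 lowest. Epcam, an adhesion protein of bile duct and progenitor cells, read 103, 140.3, 131 and 166, a 1.43-fold range.

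Plasma protein genes were bright on all 4 arrays. Of 50 measured genes of hepatocyte secreted proteins, 47 lay above background on all 4 arrays (94%, against 62.7% of all genes), and 29 were among the brightest 10% of genes. Of the 30 brightest genes on the arrays, 9 were in this list and 6 encoded ribosomal proteins. The 9 were Apoa1, Cp, Igfbp1, Fgb, Ttr, Serpina1b, Ahsg, Kng1 and Alb. Afp, the elongation factor Eef1a1, the chaperone Hspa8, the ferritin Fth1 and the actin Actg1 were among the rest. Apoa1, the main protein of high density lipoprotein, read 5107, 4688, 6494 and 5918. Fgb, the fibrinogen beta chain, read 4131, 4059, 5805 and 5071. Serpina1b, an alpha-1-antitrypsin gene with near-identical copies that may share its signal, read 3839, 3705, 5865 and 5164. The highest signal of any probe set was 5518, 4688, 6812 and 7348 on controls 1 to 4. Whether the top of the scale compresses such bright genes was not tested.

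Further plasma proteins ranged from uniform to strongly uneven. Vtn, the adhesion protein vitronectin, read 2782, 2986, 3290.2 and 3002, a 1.12-fold range after centring. Kng1, the kininogen precursor, read 4200.2, 4065, 4951 and 4789.7. The apolipoproteins diverged. Apob, the core of very low density lipoprotein, read 1023, 368, 649 and 207, lowest on control 4. Apoc3, an inhibitor of lipoprotein clearance, read 199.5, 495, 90.2 and 62.9. Apoa4 read 86.5, 241, 19.9 and 6.56, at background on control 4. Apoc1 ran the other way, at 78.3, 70.1, 252 and 364. Hamp, the iron hormone hepcidin, which inflammation induces, read 194, 595, 277 and 1639, highest on control 4. Igf1, a growth factor made by the mature liver, read 359.6, 227, 23.2 and 12.6, with controls 1 and 2 far above controls 3 and 4. Itih1, F9 and F10, made by hepatocytes, also read lowest on control 4, F9 (a clotting factor) at 60.4, 43.2, 28.5 and 12.7. In all, 8 of the 50 genes varied at least 4-fold between arrays, against 8.51% of all genes. Of the 3 members that were not above background on all arrays, C8a (complement) read 13.5, 1.15, 1.02 and 2.39 and Mup3 (a major urinary protein of the adult liver) read 0.572, 13.7, 0.435 and 3.36, and Apoa4 was the other.

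Metabolic enzymes of hepatocytes were detected broadly and at uneven signal. Of 29 measured, 27 lay above background on all 4 arrays, and 8 were among the brightest 10%. Cps1, which starts the urea cycle, read 2071, 2468, 2643 and 2988, a 1.27-fold range. Arg1, which ends it, read 1283, 2051, 929 and 1194. Between them in the cycle, Otc read only 17.4, 18.7, 9.65 and 7.85. Ass1 read 24.7, 30.7, 24.8 and 30.96. Asl read 213, 379, 374 and 352. G6pc, the last step of glucose output, read 452, 910.4, 457 and 274. Pck1, its early step, read 127, 119.95, 112 and 136. Tat, an enzyme of tyrosine breakdown that appears around birth, read 116, 291, 168 and 112. Tdo2, the tryptophan dioxygenase that appears later, read 11.7, 20.3, 7.14 and 6.697, close to background on controls 1 to 3 and at it on control 4. Gys2, the glycogen synthase of the liver, read 27.04, 34.3, 14.8 and 5.603, at background on control 4. Glul, glutamine synthetase, which marks the cells around the central vein in the adult liver, read 2032, 2084, 1622 and 1709. Bhmt, of methionine metabolism, read 668, 532, 208 and 106. Adh1, an alcohol dehydrogenase, read 292, 1152, 711 and 1852, a 5.597-fold range with control 1 lowest. Control 2 was the highest array for 17 of the 29 enzymes, where it was the highest for 33.4% of the 15753 genes above background on any array. This count depended on the scaling, and was 7 with the arrays centred on all probe sets, where the share over all genes was 14.9%.

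Cytochromes and bile transporters split into detected and undetected members. Of 29 measured, 22 lay above background on all 4 arrays (75.9%, against 62.7% of all genes) and 1 on none. Cyp3a11, a broad drug metabolising cytochrome, read 2656, 2099, 2772 and 1702, and near relatives in its family may share the signal. The signals of the cytochromes spanned the whole range down to background. Cyp2e1, which oxidises ethanol, read 6.39, 23.03, 5.81 and 4.91, above background on control 2 alone. Cyp1a2, a caffeine oxidising enzyme, read 0.305, 1.401, 8.695 and 6.53, above it on control 3 alone. Cyp2c37 was at background on all 4 arrays. Of the bile acid enzymes, the rate-limiting Cyp7a1 read 27.5, 24.2, 53.1 and 23.9. Cyp27a1, of the alternative pathway, read 125, 280.4, 168 and 189. Cyp8b1 and Cyp7b1 stayed under 40 on all arrays. Slc10a1, which takes bile acids up from blood, read 228, 353, 168 and 96.3. Abcb11, the bile salt export pump, read 151, 132, 66.96 and 34.8, with control 4 lowest. Abcc3, an export pump of the blood side, read 108, 186, 245 and 521, with control 4 highest. Slc2a2, the glucose carrier, read 704, 1117, 324 and 254. Tfr2, an iron sensor, read 1246, 2299.8, 1286 and 1389.8. In this list 9 of 29 genes varied at least 4-fold, against 8.51% of all genes, with Cyp2c29 (94.9, 130.2, 74.6 and 8.18) and the sterol exporter Abcg5 (34.4, 75.5, 15.04 and 10.1) widest. Control 2 was highest for 18 and control 4 lowest for 16 of the 28 above background on any array, against 33.4% and 26.3% of all such genes. With centring on all probe sets the counts were 11 and 13, against 14.9% and 10.5% of all such genes.

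Genes typical of the fetal liver were detected as well. Of 11 measured, 10 were above background on all 4 arrays. Igf2, the fetal growth factor, read 3098, 2974, 4503 and 4648. Gpc3, a fetal liver proteoglycan, read 388, 378, 429 and 772. Igf2bp3, a fetal RNA binding protein, read 483, 565, 616 and 543. Igf2bp1, of the same family, read 98.4, 137, 120.01 and 267. Hmga2, a fetal chromatin protein, read 687, 504, 556 and 567. The exception was Lin28b, which blocks let-7 maturation and read 6.47, 11.6, 5.45 and 4.55, above background on control 2 alone. Mest, an imprinted gene, was the only member that varied at least 4-fold, at 152, 204, 50.98 and 30.97.

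Most liver transcription factors were detected. Of 25 measured, 22 lay above background on all 4 arrays. Hhex, needed for the liver bud to grow, read 1091, 1253, 1319.7 and 1056. Prox1, needed for hepatoblasts to migrate, read 253, 241, 271 and 230.2, a 1.25-fold range. Foxa1 read 189, 295, 407 and 533. Foxa2, a pioneer factor of endoderm, read 116, 185, 317 and 255. Cebpa, which favours the hepatocyte fate, read 64.7, 61.3, 136 and 150.01, with controls 3 and 4 above controls 1 and 2. Onecut2, of the early liver, read 599, 212, 121 and 57.5. Zbtb20, a repressor of Afp after birth, read 757, 262, 93.1 and 43.8. Both were highest on control 1 and lowest on control 4, and they were the 2 members that varied at least 4-fold. Nr1h4, the bile acid receptor, read 227, 312, 107 and 130.4. Nr1i3, the xenobiotic receptor CAR, was at background on all 4 arrays, and its partner in drug response Nr1i2 read 11.5, 25.2, 14.3 and 21.1. Gata4 read 11.8, 8.61, 12.7 and 16.2, dim, while Gata6 read 377, 359, 387 and 301.

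**Figure D2:**
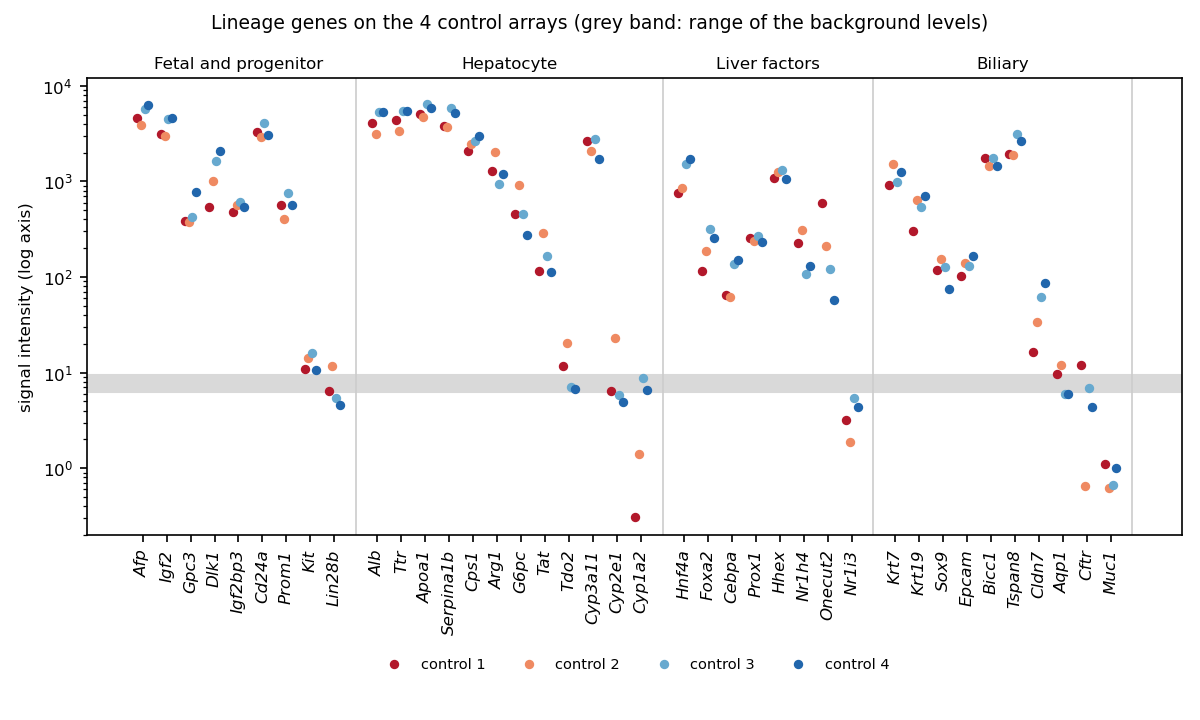
Signal intensity on a log axis of fetal, hepatocyte, liver factor and biliary genes, 1 point for each of the 4 control arrays, with the grey band spanning the background levels of 6.28 to 9.44. Afp, Alb and Krt7 lie far above the band on each array, while Cyp1a2, Nr1i3 and Muc1 lie in or under it.

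Bile duct genes were present in part. Of 24 measured, 18 lay above background on all 4 arrays (75%, against 62.7% of all genes) and 2 on none. Krt7, a keratin of ducts, read 915, 1517, 991 and 1265, highest on control 2. Krt19, another, read 305, 645, 539 and 697, lowest on control 1. Sox9, the factor of early duct cells, read 118, 154, 128 and 74.5. Sox4, its partner in duct formation, read 2657, 2208, 2289.5 and 1730.3. Bicc1, an RNA binding protein whose loss gives cysts, read 1768, 1449, 1774 and 1460.1. Tspan8, a tetraspanin, read 1953, 1885, 3125 and 2675. Cldn4, a claudin, read 142, 338, 133 and 153, and Slc4a2, the anion exchanger of bicarbonate secretion, read 192, 129.99, 320.3 and 235. Other members lay near or at background on some or all arrays. Cftr, the chloride channel, read 11.98, 0.656, 6.95 and 4.36, and the water channel Aqp1 9.56, 12.1, 6.02 and 5.98. Sctr, the secretin receptor, read 7.09, 26.5, 6.83 and 9.903. Muc1, a mucin, and Vtcn1 were at background on all 4 arrays. Pkhd1, the fibrocystin gene, read 169.8, 163, 57.1 and 34.7, with controls 1 and 2 above controls 3 and 4. Cldn7, a tight junction protein, ran the other way, at 16.4, 34.1, 61.1 and 87.5. Mmp7, a matrix protease of injured ducts, read 14.5, 26.4, 10.5 and 99.2, highest on control 4. The range was at least 4-fold in 4 of the 24 genes.

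Of the 20 measured surface genes of progenitor and stem cells, 17 lay above background on all 4 arrays. Cd24a, a small surface glycoprotein, read 3287, 2921, 4129 and 3049.6. Igdcc4, a fetal liver surface protein, read 791, 969.8, 1335 and 1086. Prom1, known as CD133, read 562, 409, 759 and 566, and the exporter Abcg2 read 429, 443, 729.6 and 587. Kit, the stem cell factor receptor, read 10.9, 14.3, 16.03 and 10.7, close to background. Thy1 read 16.6, 5.97, 9.09 and 8.21. Lgr5, a Wnt target of stem cells, read 52.1, 19.7, 23.1 and 24.3. Foxl1 was at background on each array. Cd34, a marker of blood and vessel precursors, read 61.8, 5.68, 0.614 and 2.62, above background on control 1 alone. Ncam1, a cell adhesion protein, read 629, 318, 133 and 105, also highest on control 1, and Cd9, a tetraspanin, read 469, 929, 1704 and 1873, lowest there.

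All 19 measured genes of simple epithelia and junctions lay above background on all 4 arrays. Krt8, a keratin of liver epithelium, read 3038, 3258, 4255 and 4029.9. Krt18, its partner, read 2336, 2918, 4269.5 and 4212. Cdh1, the epithelial cadherin, read 733, 844, 1172 and 1093. Cdh2, the cadherin that hepatocytes share with mesenchymal cells, read 1752, 961, 636 and 365, highest on control 1 and lowest on control 4. Cldn3, a claudin, read 51.8, 139, 205 and 284. Gjb1, the hepatocyte connexin, read 264, 608, 811 and 550.3. Both were lowest on control 1. Control 1 was the lowest array for 11 of the 19 genes, against 31.8% of all genes above background on any array.

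Cell cycle genes were detected almost without exception. Of 29 measured cell cycle genes, 28 lay above background on all 4 arrays. Control 4 was the highest array for 21 of them and control 2 the lowest for 18, where over all genes above background on any array these shares were 23.4% and 18.8%. With centring on all probe sets the counts were 26 and 25, against 39.5% and 46% of all such genes. Cdk1, the kinase of mitosis, read 302, 345, 612 and 1232. Ccnb2, its cyclin, read 137, 155, 362 and 708. Birc5, survivin, read 77.5, 88.8, 213 and 471. Pcna, the replication clamp, read 948, 973, 2103 and 2603. Mki67, the Ki-67 antigen, read 593, 108, 141 and 159, highest on control 1. Top2a read 449, 185, 474 and 613. Foxm1, a factor of mitotic genes, read 20.1, 8.59, 37.6 and 101, at background on control 2. Of 7 measured inhibitors of cyclin dependent kinases 6 lay above background on all 4 arrays. The exception was Cdkn2a, whose locus the genotype disrupts and which read 6.57, 1.87, 0.845 and 0.738. The sources used here do not say whether its probes lie in the deleted part, so this does not check the genotype. Cdkn2b, its neighbour, read 1121, 699, 1020.04 and 814. Cdkn1a, the p53 target p21, read 920.4, 1076, 732 and 1057. Cdkn1c, an imprinted inhibitor, read 558, 430.1, 198 and 491, lowest on control 3.

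The receptors for both added growth factors were detected, among 15 of 16 receptors above background on all 4 arrays. Met, the receptor of hepatocyte growth factor, read 839.7, 612, 598 and 585. Egfr, the receptor of epidermal growth factor, read 214, 257, 515 and 261. Its relative Erbb3 read 173, 340.1, 272 and 376, while Erbb4 was at background on all 4 arrays. Osmr, the oncostatin M receptor through which fetal hepatocytes mature, read 842, 527, 726 and 576, and its partner Il6st read 615, 616, 347 and 352. Il6ra, the interleukin 6 receptor, read 50.9, 65.9, 11.7 and 16.5, dim on controls 3 and 4. Of 24 Notch and TGF-beta genes, 20 lay above background on all 4 arrays. Jag1, the ligand of duct formation, read 290.4, 263, 276 and 258, and the receptor Notch2 read 468, 423, 384 and 356. The Notch target Hes1 read 207, 319, 519.6 and 476, with controls 3 and 4 above controls 1 and 2. Hey2 was at background on each array. Tgfbr1 read 1809.9, 1627, 960.1 and 968, with controls 1 and 2 above controls 3 and 4. Tgfbr2, the partner receptor, read 521, 413, 881 and 984, with controls 3 and 4 higher. The ligand Tgfb3 read 529, 67.1, 41.1 and 78.2, highest on control 1, and Tgfb1 read 14.1, 2.93, 48.7 and 47.4.

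Markers of blood and vessel cells were mostly dim. In bulk RNA, fewer cells of a type and less RNA per cell cannot be told apart. Of 18 endothelial genes 6 lay above background on all 4 arrays and 5 on none. Pecam1, Tek, Tie1, Lyve1 and Erg were the 5 at background. The 6 above it on all 4 arrays were Flt1, Kdr, Eng, Esam, Stab1 and Egfl7. Flt1 read 30.8, 84.4, 29.8 and 20.8, and Kdr read 15.5, 43.6, 11.6 and 14.7, so endothelial markers were found on both sides. The sum of the list's signals was 227, 414, 275 and 367 on controls 1 to 4, and Egfl7, a secreted vessel protein, was its brightest member at 68.6, 111, 128 and 194. Control 2 was the highest array for 8 of 13 endothelial genes above background on any array, against 33.4% of all such genes. With centring on all probe sets it was highest for 6, against 14.9%. Of the 13, 7 lay above background on only some arrays, and Emcn passed on control 2 alone. Of 17 leukocyte genes 5 lay above background on all 4 arrays. Ptprc, the pan-leukocyte CD45, read 3.37, 4.296, 6.72 and 0.579, and Cd163 and Aif1 were at background throughout. Cd14, a lipopolysaccharide receptor that hepatocytes also make under inflammation, read 265, 594, 1183 and 2425, highest on control 4. Csf1r, the macrophage growth factor receptor, read 168, 514, 204 and 279.5, highest on control 2. Control 2 was the highest array for 9 of 15 genes of this list, against 33.4% of all genes above background on any array. Its background level was also the highest. Of the 15, 10 lay above background on only some arrays. Itgb2, Itgam and Cd52 did so on control 2 alone, so the filter itself counts them there. The summed signal of the list was 598, 1521, 1510.4 and 2863, with Cd14 and Csf1r the brightest members. Laptm5 read 3.49, 86.3, 22.5 and 21.7. Adgre1, the F4/80 antigen, read 32.2, 94.2, 36.4 and 34.95. The part of macrophages in these signals was not tested.

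Of 8 lymphocyte genes 2 lay above background on all 4 arrays, and of 5 megakaryocyte genes 2 did. Erythroid genes, which mark the blood formation of the fetal liver, lay above background on all 4 arrays in 3 of 12 cases. The brightest of the 3 was Epor, the erythropoietin receptor, at 19.5, 18.5, 41.01 and 54.3. Hba-a1, an alpha globin, read 8.39, 35.7, 2.76 and 15.1, and Alas2, Slc4a1 and Hbb-y were at background on all 4 arrays. Of the pancreatic genes 1 of 9 lay above background on all 4 arrays, the elastase Cela1 at 22.7, 26.4, 51.996 and 94.2. Pou5f1, Nanog, Sox2, Zfp42 and Tdgf1 were at background throughout, and 3 other genes of the 9 in the list of pluripotent cells lay above it on all 4 arrays, of which Esrrb, also a factor of other tissues, was the brightest at 12.9, 24.4, 28.1 and 25.97. In the list of stomach and intestine 5 of 13 genes lay above background on all 4 arrays. Tff3, a trefoil peptide of mucous cells, read 662, 1229, 1337 and 384. Vil1, villin of brush borders and bile canaliculi, read 168, 305, 468 and 468. Cdx1, a factor of the intestine, was at background and Cdx2 read 0.857, 23.8, 12.3 and 25.2. All 4 sex-linked genes lay above background on each array. The Y-linked Uty read 98.5, 28.3, 48.1 and 19.7, and the inactive X transcript Xist read 455, 1292, 1295 and 1150.1.

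Between the 4 arrays 1548 of 18193 genes, 8.51%, varied at least 4-fold, measured after each array was centred on the median of the 11416 detected genes and values under background were set to it. The count was 915 without control 1 and 946 without control 2. Among the 30 widest of the genes detected on all arrays, control 1 was highest for 25 and control 4 lowest for 21. Of the 30, 7 encode collagen chains, each highest on control 1. Col3a1, the collagen of reticular fibres, read 2299.6, 353, 112 and 19.2. Col1a2, of type I collagen, read 3343, 1290.2, 198 and 54.9. Lox, which crosslinks collagen, read 1709.6, 428, 26.7 and 37.1. In each of them control 2 lay between control 1 and the other arrays. Among genes partly at background, Col8a1 read 2574, 295, 45.6 and 6.53. Ptx3, a secreted pentraxin of inflamed stroma, read 1966, 38.8, 4.57 and 12.3. Postn, periostin, read 637, 2.89, 12.3 and 4.09, above background on controls 1 and 3. Control 1 was by far the highest array in each of these. Prrx1, a factor of mesenchyme, read 602, 48.4, 8.82 and 5.96.

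The list of stellate cell and fibroblast markers was uneven on the same arrays. Of 26 genes 14 varied at least 4-fold, against 8.51% of all genes, and control 1 was highest for 16 of 25, against 28.2%. The sum of their signals was 22853, 13174, 8988 and 7516. Dcn, the proteoglycan decorin, read 1272, 499, 120.01 and 127. Pdgfra, a receptor of fibroblasts, read 105, 53.02, 9.43 and 13.7. The range was narrower in other members. Vim, an intermediate filament of mesenchymal and cultured epithelial cells, read 3345, 2805, 3549.9 and 3019.6. Sparc, a matrix binding protein, read 1839, 1471, 1400.3 and 1191. Acta2, smooth muscle actin, read 3013, 2969, 1237 and 1249, with controls 1 and 2 alike. Genes linked to stellate cells in particular were mixed. Lrat, which stores vitamin A, read 6.42, 15.97, 2.29 and 1.96, and Cygb was at background on all 4 arrays. Pdgfrb, the receptor of platelet derived growth factor, read 619, 252, 228 and 253, highest on control 1. Des, desmin, which muscle cells share, read 11.1, 26.6, 20.8 and 68.2, highest on control 4. Reln, reelin, was highest on control 3, at 75.1, 69.3, 263 and 57.4. Of 8 mesothelial genes, control 1 was highest for 5, against 28.2% of all genes above background on any array, with Gpm6a at 273, 10.7, 14.04 and 7.01 and Upk3b at 102, 17.9, 6.92 and 13.7. Control 1, whose Gapdh 3' over 5' ratio was 3.10, was also the lowest array for 11 of 19 epithelial genes. The part of stromal cells or RNA quality in the range of the hepatocyte genes was not tested.

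Control 4 carried genes of skeletal muscle. Of the 15 widest genes partly at background, control 4 was highest for 6, namely Tnni1, Mylpf, Myog, Myl4, Myh3 and Tnnc2, all of muscle. Myog, myogenin, the factor that commits myoblasts to fuse, read 0.825, 3.44, 1.14 and 320.4. Myh3, the embryonic myosin heavy chain, read 5.41, 4.78, 0.643 and 303. Tnni1, slow troponin I, read 3.402, 8.48, 2.12 and 515. Actc1, the cardiac actin of embryonic muscle, read 24.2, 91.4, 31.4 and 2098. A muscle list of 28 genes was drawn up after these values were seen. Of its genes 8 lay above background on all 4 arrays and 25 on any array. Control 4 was highest for 22 of the 25, against 23.4% of all genes above background on any array. The choice of genes favours this count, and so does the filter. Myog, Myh3, Tnni1, Mymk and Chrng passed it on control 4 alone, so the filter itself counts them there. The list's summed signal was 972, 1084, 482 and 8588. Myod1, the myoblast factor, read 3.13, 3.15, 7.904 and 85.4. Mymk, the fusion protein myomaker, read 0.566, 1.399, 4.09 and 56.3. Myf5 and Pax7, of early muscle precursors, and Neb, nebulin, were at background on all 4 arrays. Tnnt2, cardiac troponin T, was an exception and read 620.2, 430.3, 61.6 and 383, highest on control 1. Control 4 was also the highest array for 21 of 29 cell cycle genes, and the part of muscle cells in that was not tested.

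**Figure D3:**
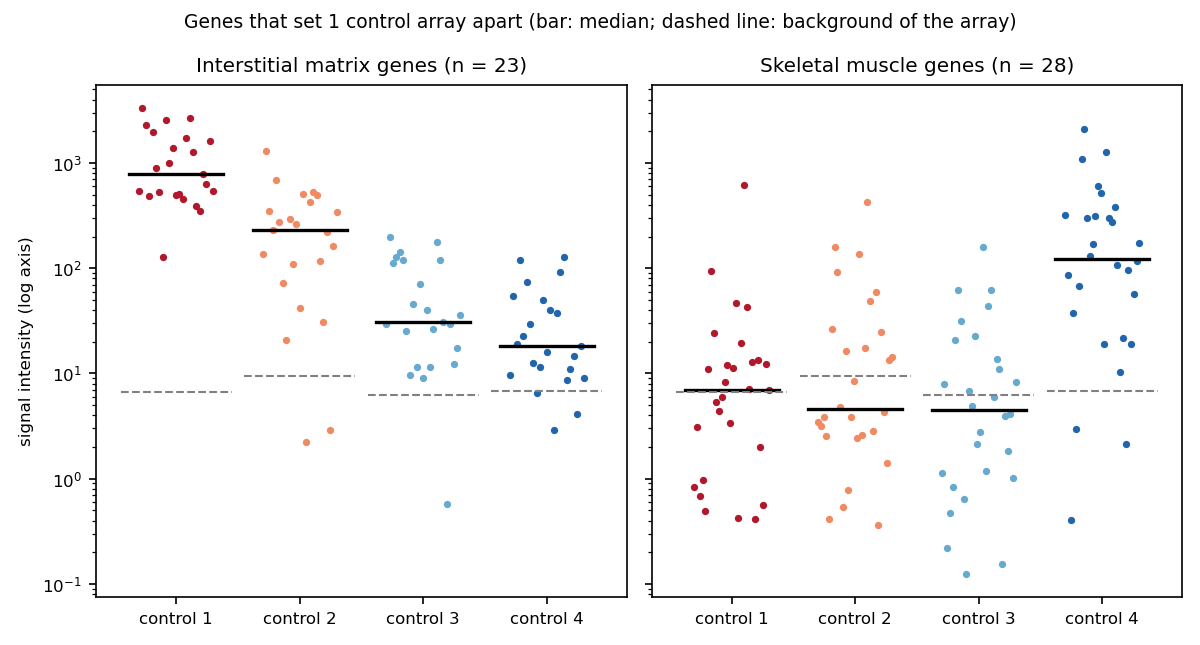
Signal intensity on a log axis of 23 interstitial matrix genes (left) and 28 skeletal muscle genes (right), 1 point per gene and array, with the median as a bar and the background as a dashed line; both lists were drawn up after the values were seen. The matrix median is 793 on control 1 and 18.1 on control 4, and the muscle median is 123 on control 4 against 4.48 to 6.97 on the others.

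In a list of 24 acute phase and inflammatory genes drawn up after values were seen, 4 varied at least 4-fold, against 8.51% of all genes. The median range of the list was 1.79-fold, against 1.74-fold over all genes. Saa3, an acute phase protein of epithelium and macrophages, read 883, 77.03, 56.7 and 3117, high on controls 1 and 4. Cxcl1, a neutrophil attractant, read 659, 387, 329 and 1885. Ccl2, a monocyte attractant, read 186, 213, 380.4 and 733. Control 4 was the highest array for all 3. Saa1, an acute phase protein of hepatocytes, read 115, 146, 83.7 and 109. Crp, another, read 1680.5, 2249.98, 1635 and 1363, with no high value on control 4. Lcn2, the iron sequestering lipocalin, read 3362, 3459, 2828 and 5634.

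Replicates 1 and 2 read higher than replicates 3 and 4 for the BioC 3' hybridisation control, at 274 and 198 against 111 and 97.0. The BioC 5' control did so too, at 198 and 165 against 107 and 89.7. The 3' probe sets of BioB, BioD and Cre, the only other hybridisation controls examined, did not separate these pairs. On controls 1 to 4 BioB 3' read 86.1, 57.3, 63.0 and 66.4, and BioD 3' read 790, 612, 711 and 749. Cre 3' read 2935, 2145, 2832 and 2909. The sources used here do not say whether the BioC difference marks a separate processing. The split tested next was taken from these control signals of the same arrays, and no label states it. Its calls ran from 0 with quantile normalisation to 2319 with centring on all probe sets. The test therefore supports no statement about the cells. In limma, with 2 arrays on each side, 0 of 10916 genes (0%) passed as higher on replicates 3 and 4 at an adjusted p under 0.05 and 1 (0.00916%) as lower, and 2084 genes (19.1%) had an unadjusted p under 0.05. The 1 call was Fbln2, a matrix fibulin, which read 506, 504, 40.3 and 39.8 (log2 difference of replicates 3 and 4 minus 1 and 2 of -3.65, SE 0.25, limma adjusted p = 0.0436). The call was lost without control 1, which leaves control 2 alone on its side (difference -3.60, limma adjusted p = 0.181). It was also lost in 4 other settings, with differences from -3.65 to -3.44 and limma adjusted p from 0.0521 to 0.109.

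**Figure D4:**
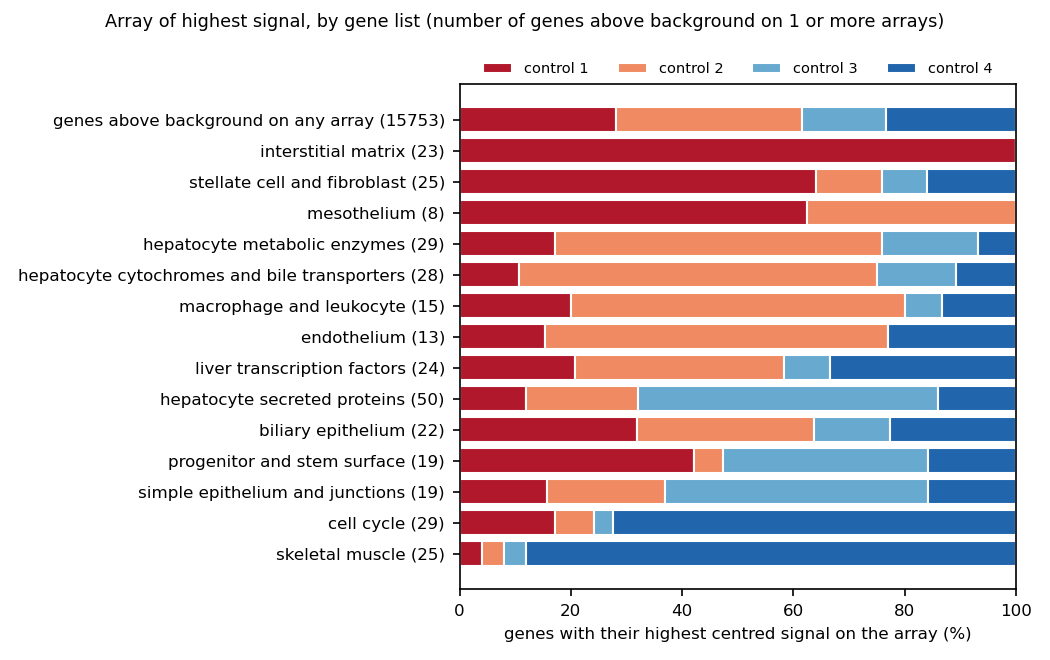
For each list, the share of genes above background on any array whose highest centred signal lay on control 1, 2, 3 or 4, with the number of such genes in brackets. The top bar gives all 15753 such genes, with shares of 28.2%, 33.4%, 15% and 23.4%. Matrix genes are red for control 1, hepatocyte enzymes largely orange for control 2, and cell cycle and muscle genes largely dark blue for control 4. The matrix and muscle lists were drawn up after values were seen.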

How the data were processed

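The deposited values are intensities per probe set on a linear scale, for 45101 probe sets on each array. With 2% trimmed from both ends their mean was 100 on each control array, so the authors' values were scaled per array. The sources used here do not name the software. A single gene symbol was attached to 34945 probe sets and several to 932, while 9160 had none here and 64 were controls. Symbols are those of the platform annotation, updated through gene identifiers. A gene is given by its probe set of highest mean over the 4 control arrays. Signals are printed as deposited, always in the order of controls 1 to 4. Ranges use values centred on the median of detected genes, with background as floor. The test of replicates 3 and 4 against 1 and 2 used limma 3.58.1 in R 4.3.3 (lmFit, eBayes with a trend, two-sided, Benjamini-Hochberg) on log2(value + 3.88) over genes from the 40th percentile of mean level, which understates changes of dim genes. On simulated data with 10916 genes it recovered 85.1% of genes shifted by 2 on the log2 scale and 23.0% of those shifted by 1. Of its calls 8.45% were false. The simulated noise was independent between genes and used the variances that limma estimated, so shifts shared by many genes of an array were left out. These rates therefore need not hold for the real arrays. Tables and figures used Python 3.11.15. Of 438 genes in 23 lists 402 were matched, and the others are not analysed here. Genes named are list members, the 30 brightest, the 30 and 15 widest, and calls of the test. Members and lists were chosen with earlier results of these data known, and 6 further lists were added after the values were seen. The 4 Bmi1 arrays are not used here. The number of arrays limits the precision.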

Additional observations from a re-analysis of the deposited data

Results flagged for a closer look

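For 20 of 189 genes named in the text and above background on any array, 1 array stood apart from the other 3. The gap to the nearest array, as a share of the whole range on the centred log2 scale, was above Dixon's 95% limit. Chance flags about 1 in 20 groups of values that were not chosen for their spread. That share does not apply to the muscle genes and the widest genes, which were named for their range. Nor does it apply where arrays under background were set to it. This was so in several of those genes, and in Cyp2e1 and Lrat, which lay above background on control 2 alone. No cause was tested. On control 1, as the highest array, the share was 0.85 for Hmga2, 0.861 for Lgr5, 0.869 for Pdgfrb and 0.869 for Postn. On control 1, as the lowest array, the share was 0.847 for Esrrb. On control 2, as the highest array, the share was 0.94 for Adgre1, 0.83 for Cldn4, 0.883 for Cyp2e1, 0.839 for Lrat and 0.891 for Tfr2. On control 3, as the highest array, the share was 0.841 for Egfr and 0.833 for Elovl6. On control 4, as the highest array, the share was 0.872 for Gpc3, 0.883 for Myh3, 0.884 for Myl4, 0.879 for Myod1, 0.885 for Myog, 0.883 for Tnnc2 and 0.897 for Tnni1. On control 4, as the lowest array, the share was 0.866 for Scd1.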

How the results depend on the processing

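With the 75th percentile of the Bacillus probe sets as background, genes at background on all arrays fell to 926, hepatic list members there to 0 and members of the non-liver lists there to 16, while 41 non-liver members lay above it. With the mean of a gene's probe sets, 4 members of the hepatic lists and 4 of the biliary list were at background. Leaving out 1 array gave 2 to 5 hepatic members at background (5 without control 2), and 915 to 1270 genes varying at least 4-fold, 915 of them without control 1 and 946 without control 2. The comparison of replicates 3 and 4 with 1 and 2 changed under every alternative run. It called 2319 genes with centring on all probe sets, which moved the median difference to 0.62, 32 with no centring, 4 with the filter on background, 2 with the pseudocount of the median, and 0 with the mean of probe sets, with no filter on level, with quantile normalisation and with eBayes without a trend. Leaving out 1 array gave 0 to 146 calls. With the same tool 1934 to 2515 genes had an unadjusted p under 0.05 in those 4 settings with 0 calls. The cause was not tested. No paired analysis was possible because 1 group is described and no groups are compared. The arrays were also left uncentred, or centred on all probe sets (both chosen after seeing the data). Either way control 1 was highest for 23 of 23 interstitial matrix genes and 15 of 25 stellate cell and fibroblast genes. Control 4 was highest for 22 of 25 muscle genes. Over all genes above background on any array, control 1 was highest for 23.1% uncentred and 17.0% centred on all probe sets. For control 4 these shares were 28.0% and 39.5%. The matrix and muscle lists were drawn up after values were seen, so their counts are no independent check. Among genes named in the text, the number of arrays above background changed for 43 of 217 and the side of the 4-fold limit for 60 of 189 under any alternative. Signal near background limits all dim genes. The other 58 alternatives to these main results stayed within 1.5 times the main value.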

Other observations

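Further gene groups, in lists drawn up after values were seen, also held uneven members. Of 11 lipid synthesis genes, control 3 was highest for 8, against 15% of all genes above background on any array. Fasn, the fatty acid synthase, read 283, 371, 950.4 and 378. Elovl6, which lengthens its product, read 225, 251, 736 and 305. Scd1, the desaturase of the liver, read 2521, 2188, 2673 and 654, with control 4 lowest, while Scd2, a relative, read 3698, 3669, 5314 and 4410.2. Thrsp, a regulator of lipid synthesis, read 122, 419, 34.5 and 0.361, at background on control 4. Of 14 hypoxia and glycolysis genes 1 varied at least 4-fold, Adm (adrenomedullin) at 209.9, 922, 24.1 and 43.1. Pgk1, of glycolysis, read 3104, 3311, 3569.5 and 3886.

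All 13 measured immediate early genes lay above background on all 4 arrays. Fos, a subunit of the AP-1 factor, read 2619.6, 2209, 2603 and 2589.9, a 1.25-fold range. Egr1, a zinc finger factor, read 2569, 2441, 2525 and 2536, a 1.15-fold range. Its relative Egr2 read 759.8, 359, 68.9 and 75.2, highest on control 1. Egr3, of the same family, read 634, 117, 54.3 and 21.1, also highest there. Metallothioneins, which bind zinc, read 3191, 3121, 5049.8 and 5306 for Mt1 and 3128, 3018, 4033 and 3928 for Mt2.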
